A study of Homo sapiens with 12 samples.

Results

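The proteins of the mitochondrial ribosome are encoded in the nucleus, and the 78 genes described here carry symbols made of MRPL or MRPS, a number and an optional letter A to C. The table held 78 such genes among 56337 distinct gene IDs, 49 named MRPL for the large subunit and 29 named MRPS for the small subunit, spread over 21 chromosomes. All 78 had a mean of at least 1 FPKM (fragments counted per length of transcript and scaled to the size of the library) over the libraries, so each was among the 13682 genes tested. The cells were HEK293T, an established human embryonic kidney line, wild type, grown in RPMI with serum.

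Ferric ammonium citrate (FAC) is an iron salt that cells take up, and bafilomycin A1 (BafA1) inhibits the vacuolar proton pump that acidifies lysosomes. The control group received neither agent. The BafA1 group received 10 nM BafA1 for 24 h after 24 h without FAC. The FAC group was preincubated for 24 h with 0.1 mg/ml FAC and received no BafA1. The FAC+BafA1 group had the same preincubation followed by 24 h of 10 nM BafA1. Each of the 4 groups had 3 libraries, and nothing in the labels ties them to separate cultures. P-values therefore measure the spread between libraries only, and that spread may be technical. The study compared the response to BafA1 with and without added iron.

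The mitochondrial ribosome translates the few messages of mitochondrial DNA, which encode core subunits of the respiratory chain and of the ATP synthase. Its large subunit forms peptide bonds and is held at the inner membrane, and its small subunit binds and decodes the message. Some of its proteins descend from bacterial ribosomal proteins, and others are specific to mitochondria. In structures of the small subunit, iron-sulfur clusters lie at the contacts of MRPS16 with MRPS25 and of MRPS6 with MRPS18C. The symbols do not match place in every case. MRPS18A and MRPS30 sit in the large subunit, and MRPS36 is a subunit of the 2-oxoglutarate dehydrogenase complex, so by place 51 of the genes belong to the large and 26 to the small subunit.

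BafA1 alone lowered most of these transcripts, and after FAC the change with BafA1 was smaller for most of them. In the control libraries they made up 0.956%, 0.955% and 0.928% of all FPKM. In the BafA1 libraries the share was 0.737%, 0.763% and 0.752%, below every control library. It was 0.927%, 0.932% and 0.931% in the FAC libraries, with all but the lowest inside the range of the controls. It was 0.864%, 0.854% and 0.864% in the FAC+BafA1 libraries, between the other treated groups with no overlap. BafA1 lowered the mean share from 0.946% ± 0.0159 to 0.751% ± 0.0131 (SD, n = 3 each) without FAC, a change of -20.7%, and from 0.930% ± 0.00265 to 0.861% ± 0.00577 (SD, n = 3 each) with FAC, a change of -7.5%. The exact two-sided permutation test gave p = 0.10 for each of these comparisons, the smallest value that 3 against 3 libraries allow. For FAC against control the same exact permutation test gave p = 0.30. In bulk RNA, fewer cells with a transcript and less of it per cell cannot be told apart.

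**Figure D1:**
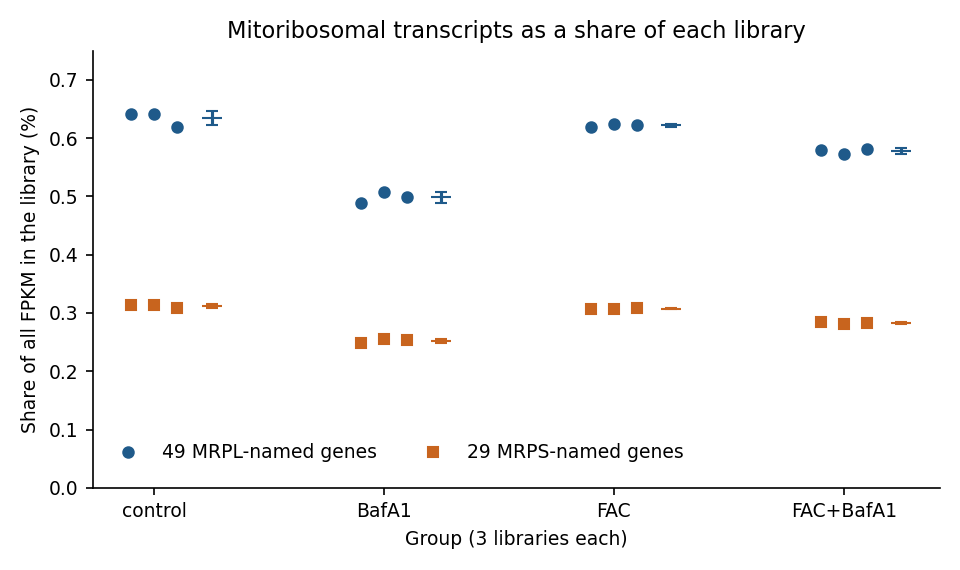
Share of all FPKM (%) held by the 49 MRPL-named genes (circles) and the 29 MRPS-named genes (squares) in each library, with the group mean and SD beside the points (n = 3). Both sets are lowest in the 3 BafA1 libraries, and the FAC+BafA1 libraries lie between those and the FAC libraries.

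Whole-library values differed little outside the BafA1 group. The sum of FPKM ran from 600261 to 604483 in the BafA1 libraries and from 634935 to 651311 in the others. Estimated depth, read from the steps between low values, was 34.5 to 38.0 M fragments, but only 51.8% to 66.9% of the values used lay within 0.2 of a whole read, so it is a rough figure. Mitochondrially encoded transcripts held 1.90% ± 0.325 of FPKM in control and 2.85% ± 0.343 in BafA1 libraries; the values were 1.71% ± 0.196 after FAC and 1.98% ± 0.26 after FAC with BafA1 (SD, n = 3 each). Of 7 HEK293T markers, 6 reached 1 FPKM, with PAX2 below it at 0.641, and of 6 keratinocyte or HeLa markers 0 did. The transferrin receptor TFRC had 58.3 FPKM in control and 130.2 in BafA1 libraries. After FAC it had 10.25, and after FAC with BafA1 122.4. A set of 627 genes, 595 of them not protein coding, was at 0 on one side of FAC and at 1 FPKM or more on the other, and 0 of the 78 genes were among them. Comparisons across FAC may therefore carry a difference in how the table was filled, and its part in those results was not tested.

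Sequence at the starts of these genes is shown before the values. RefSeq promoter windows of GRCh38.p14, from 250 bases before to 50 bases after the start, matched 69 of the 78 genes by symbol. The letters ATGGCGG, the core of the YY1 motif, occurred on either strand in 24 of the 69 windows (34.8%), against 5.72% of all 27305 windows and 11.1% of the 9750 windows of genes tested here. They stood in the direction of the gene in 20 of 25 matches. Of the 18 such matches with 10 bases on each side inside the window, 15 began at an annotated start codon in GENCODE 44, so the same letters are also the first codons of the protein. Stretches of 27 bases from genes that fell, did not pass the test or rose with BafA1 are printed here with the motif in capitals, 5′ to 3′ and in order of their change.
MRPS15, chr1:36464341-36464367, minus strand: ctgggccagcATGGCGGcgcccatgta
MRPS18A, chr6:43687763-43687789, minus strand: gtttttgaagATGGCGGccctcaaggc
MRPL1, chr4:77862839-77862865, plus strand: agtgcccaacATGGCGGcggccgtaag
MRPL50, chr9:101398576-101398602, minus strand: ctcatcgaagATGGCGGcgcgatctgt
MRPS18B, chr6:30617856-30617882, plus strand: gtacgtcaagATGGCGGcgtctgtatt
MRPS30, chr5:44808953-44808979, plus strand: gcgggcaaagATGGCGGcggccaggtg
MRPL58, chr17:75012677-75012703, plus strand: agacctgagcATGGCGGccaccaggtg

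In MRPS15, the first of these, the motif was not at an annotated start codon; in the other 6 it was. The median change with BafA1 alone was -0.25 for the 24 genes with the letters and -0.52 for the rest of the 69. After FAC the medians were -0.13 and -0.09. Over the same 69 genes GCGCANGCG (the NRF1 motif, for a factor that drives nuclear genes of mitochondrial proteins) was in 13 windows, 18.8% against 15.9% of windows of genes tested. CCGGAAGT (the ETS family motif) was in 11, 15.9% against 9.45%. CACGTG (the E-box) was in 6, 8.7% against 10.4%, and TGATGCAA (a C/EBP-ATF element) was in 0, against 0.39%. These are counts of letters on both strands, not of bound sites. With BafA1 alone, the medians of genes with and without the motif were -0.41 and -0.48 for NRF1. They were -0.52 and -0.41 for ETS, and -0.24 and -0.46 for the E-box. None of these splits, that of YY1 included, was tested. The 250 bases before the start are printed for MRPL20, which holds an NRF1 match read on the opposite strand and an ETS match (both in capitals), and for MRPL41, which holds no match to any of the 5 motifs. Both were among the 5 largest falls with BafA1 alone.
MRPL20, chr1:1407294-1407543, minus strand: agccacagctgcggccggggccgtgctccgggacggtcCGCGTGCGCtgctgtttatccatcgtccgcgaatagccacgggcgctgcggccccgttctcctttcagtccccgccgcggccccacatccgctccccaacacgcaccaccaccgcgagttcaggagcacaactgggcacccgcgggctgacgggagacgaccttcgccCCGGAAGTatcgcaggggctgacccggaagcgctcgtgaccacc
MRPL41, chr9:137551629-137551878, plus strand: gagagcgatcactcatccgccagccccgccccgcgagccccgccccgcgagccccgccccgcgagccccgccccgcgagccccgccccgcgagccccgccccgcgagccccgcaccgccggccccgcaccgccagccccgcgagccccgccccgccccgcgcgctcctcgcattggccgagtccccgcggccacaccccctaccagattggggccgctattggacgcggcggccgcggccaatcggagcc

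Without FAC, BafA1 changed 71 of the 78 transcripts in the test across all genes (limma on log2(FPKM + 1), Benjamini-Hochberg adjusted p under 0.05). Of these, 66 fell and 5 rose. Over all genes tested 67.1% were called, 37.6% lower and 29.5% higher, against 84.6% lower and 6.41% higher for the mitoribosomal genes. Their median change was -0.43 on the log2 scale, beside -0.04 for all genes. Sizes were moderate: 54 fell by at least 0.25, 33 by at least 0.5, and 2 by at least 1, while 0 rose by 0.25 or more. With every library scaled to the same sum of FPKM the median was -0.33, and 9 genes were called higher, beside 35.5% of all genes. The share of all called genes that were higher went from 44% to 53.5%. Over the other ways of scaling, filtering and fitting, with fits that left out a library aside, 55 to 66 of the 78 genes were called lower.

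The deepest falls were in both subunits. MRPL41, a large-subunit protein specific to mitochondria, was 27.92, 26.18 and 22.32 FPKM in control and 10.95, 11.04 and 13.83 in BafA1 libraries. After FAC it was 21.14, 19.96 and 18.55, and after FAC with BafA1 23.97, 21.29 and 20.08. The BafA1 libraries were below all others, and the FAC and FAC+BafA1 libraries overlapped. The mean with BafA1 was 0.469 times control (log2 -1.03 ± 0.10 SE, adjusted p = 1.84e-06, limma), and FAC+BafA1 against FAC gave 0.12 ± 0.10 (adjusted p = 0.44, limma).

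MRPS28, a small-subunit protein of bacterial descent, was 71.96, 71.21 and 66.23 FPKM in control and 33.86, 33.18 and 35.2 in BafA1 libraries. With FAC it was 67.06, 66.36 and 64.83, and with FAC and BafA1 58.92, 55.87 and 61.24. BafA1 libraries were lowest without overlap, and FAC+BafA1 libraries lay below FAC libraries without overlap. The changes were -1.01 ± 0.04 without FAC (adjusted p = 1.21e-09, limma) and -0.17 ± 0.04 with it (adjusted p = 0.0155, limma).

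MRPL20, a large-subunit protein of bacterial descent, fell from 174.43, 182.33 and 167.77 FPKM in control to 84.54, 89.67 and 91.78 in BafA1 libraries. It fell from 166.63, 173.78 and 160.3 in FAC to 142.38, 142.73 and 137.92 in FAC+BafA1 libraries. Neither pair of groups overlapped, and the drop was -0.97 ± 0.04 without FAC (adjusted p = 1.33e-09) and -0.24 ± 0.04 with it (adjusted p = 0.00188, both limma).

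MRPS17, of the small subunit, was 35.28, 30.84 and 30.56 FPKM in control and 14.92, 16.63 and 16.45 in BafA1 libraries, a change of -0.97 ± 0.06. MRPL23, which lies at the exit of the peptide tunnel, was 94.03, 95.23 and 87.69 in control and 44.67, 48.08 and 50.64 in BafA1 libraries, a change of -0.94 ± 0.05. Both were far below their controls. With FAC, MRPS17 still fell, by 0.22 (adjusted p = 0.0277, limma), while MRPL23 changed by -0.08 (adjusted p = 0.308, limma).

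The proteins of the factor-binding stalk did not move together. MRPL12, the stalk protein that contacts translation factors, was 178.88, 189.34 and 164.64 FPKM in control and 94.43, 100.14 and 102.64 in BafA1 libraries (-0.83 ± 0.05, adjusted p = 1.94e-08, limma). MRPL11, at the stalk base, had a mean of 83.8 ± 6.20 in control and 50.1 ± 2.45 in BafA1 libraries (SD, n = 3 each; -0.73 ± 0.05). MRPL10, which anchors MRPL12, was 47.02, 48.72 and 46.62 in control and 54.5, 53.39 and 52.82 in BafA1 libraries. Every BafA1 library was above every control for MRPL10, which rose by 0.17 ± 0.04 (adjusted p = 0.00129, limma).

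The other 4 risers were also small in size. MRPL45, which ties the large subunit to the inner membrane, rose from 44.94, 44.48 and 43.02 to 51.51, 52.11 and 52.23 FPKM (0.23 ± 0.03, adjusted p = 4.37e-05, limma). MRPL58, a peptidyl-tRNA hydrolase built into the large subunit, rose from 49.73, 48.88 and 48.66 to 55.86, 53.52 and 58.77 (0.19 ± 0.05, adjusted p = 0.00454, limma). MRPS30, of the large subunit by place, rose from 45.79, 43.51 and 42.61 to 48.62, 49.86 and 49.42 (0.16 ± 0.04, adjusted p = 0.0027, limma). In none of these did BafA1 and control libraries overlap. MRPS18B, of the small subunit, had 59.35, 58.31 and 56.96 in control and 61.69, 66.66 and 61.49 in BafA1 libraries (0.12 ± 0.04, adjusted p = 0.0122, limma). Without BafA1 replicate 2 its change was 0.08 (adjusted p = 0.0562, limma). Reads of MRPL45 may be shared with its pseudogenes, which are listed at 3.71 FPKM in sum beside 46.3 for the gene.

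**Figure D2:**
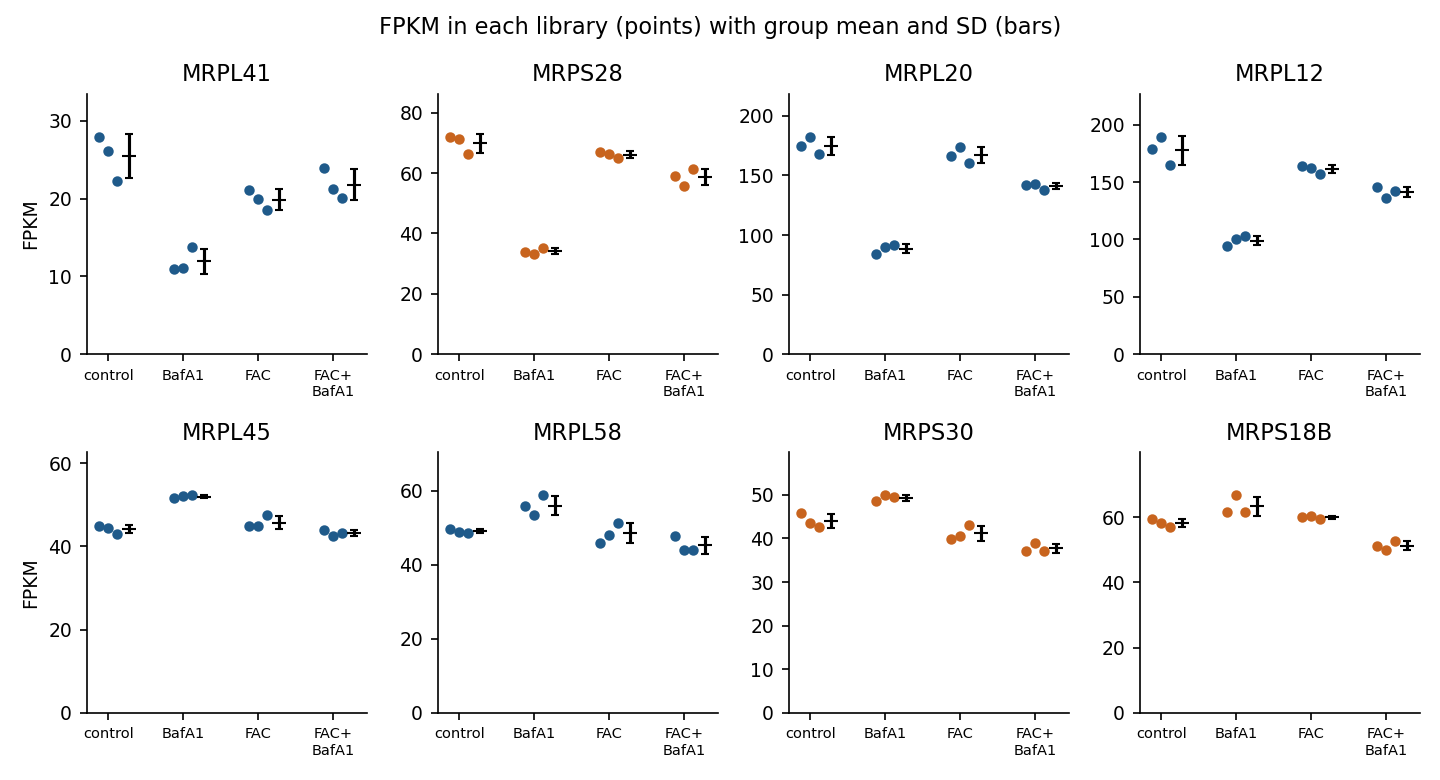
FPKM in each library (points) with the group mean and SD (bars, n = 3) for 4 genes that fell most or hold a named role (upper row) and 4 that rose (lower row) with BafA1 alone; MRPL genes are blue and MRPS genes orange, and each axis starts at 0. In the upper row the BafA1 libraries stand apart below the rest, and in the lower row they stand slightly above.

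The 7 genes that did not pass the test in BafA1 against control were MRPL2, MRPL38, MRPL50, MRPS5, MRPS22, MRPS31 and MRPS35, with changes from -0.10 to 0.05. MRPS22, of the small subunit, changed by -0.09 ± 0.05 (adjusted p = 0.0995, limma), and by -0.14 without BafA1 replicate 2 (adjusted p = 0.0153, limma). MRPL50, one of the lowest transcripts, changed by -0.10 ± 0.04 (adjusted p = 0.0675, limma) and by -0.14 without control replicate 2 (adjusted p = 0.0242, limma). Reads of MRPS31 are uncertain, since 4 pseudogenes are listed at 9.1 FPKM in sum beside 30.5 for the gene.

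Levels in these paragraphs are per length, so they can be set against each other. The median over the 78 genes was 69 FPKM in control and 54.1 in BafA1 libraries, and 67.3 and 62.1 in the matching groups with FAC. The most abundant was MRPL51, at 286.6 ± 6.74 FPKM in control and 172.8 ± 5.14 in BafA1 libraries, and 283.7 ± 10.9 and 267.1 ± 9.71 in those with FAC (SD, n = 3 each). By the mean over all 12 libraries MRPL37 and MRPL3 followed. They were 182.1 ± 0.95 and 176.1 ± 1.11 in control and differed there by more than their spread, while MRPL12, lower over all libraries, was 177.6 ± 12.4 in control. MRPL57 was lowest, at 13.3 ± 0.409 in control and 8.42 ± 0.572 in BafA1 libraries (-0.60 ± 0.06, adjusted p = 2.45e-06, limma). High and low transcripts were thus both among those that fell. MRPL37 fell by only 0.11 (adjusted p = 0.00273, limma); its change was 0.07 under quantile normalization (adjusted p = 0.0273, limma) and -0.01 with equal sums of FPKM (adjusted p = 0.756, limma), so its direction depends on the scaling.

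Large and small subunits fell to a similar extent without FAC. Of the 49 MRPL genes 43 fell and 3 rose, with a median change of -0.45, and of the 29 MRPS genes 23 fell and 2 rose, with a median of -0.41. The MRPL share of all FPKM went from 0.635% ± 0.0127 to 0.499% ± 0.0095 and the MRPS share from 0.312% ± 0.00321 to 0.252% ± 0.00361 (SD, n = 3 each), changes of -21.4% and -19.1%. The ratio between them shifted slightly. MRPL genes held 67.13%, 67.22% and 66.81% of the mitoribosomal FPKM in control and 66.32%, 66.53% and 66.34% in BafA1 libraries. Those ranges did not overlap, and the mean was lower by 0.657 percentage points (exact two-sided permutation test p = 0.10, the smallest possible with 3 against 3 libraries). Counted by place the medians were -0.44 for both subunits.

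Within the large subunit the median differed between genes listed with a bacterial counterpart and genes listed as specific to mitochondria. These classes do not follow descent strictly. MRPS18A and MRPS18B are listed as specific to mitochondria, and their relative MRPS18C as having a counterpart. Of 29 large-subunit genes with a bacterial counterpart, 27 fell and 1 rose, with a median of -0.51; the riser was MRPL10. Of 22 large-subunit genes specific to mitochondria, 17 fell and 3 rose, with a median of -0.30; the risers were MRPL45, MRPL58 and MRPS30. In the small subunit, 15 of 16 genes with a bacterial counterpart fell, with a median of -0.43. Of 10 specific to mitochondria 6 fell and 1 rose, with a median of -0.45. The difference between these classes was not tested, because the genes of a class are not replicates.

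The proteins at the iron-sulfur contacts all fell with BafA1 alone. MRPS16 went from 108.8 ± 1.64 to 79.05 ± 1.27 FPKM (-0.46 ± 0.04) and MRPS25 from 56.06 ± 3.68 to 37.77 ± 1.30 (-0.56 ± 0.05), SD and n = 3 each. MRPS6 went from 44.69 ± 1.67 to 30.87 ± 1.60 (-0.52 ± 0.04) and MRPS18C from 94.95 ± 5.29 to 70.99 ± 2.67 (-0.41 ± 0.04). These 4 changes lay near the median of the 78 genes. With FAC they parted: MRPS18C still fell by 0.31 (adjusted p = 3.76e-04) and MRPS16 by 0.18 (adjusted p = 0.00811). MRPS6 fell by 0.13, close to the threshold (adjusted p = 0.044), and MRPS25 changed by 0.02 (adjusted p = 0.876, all limma). MRPS12, the protein of the decoding site, fell from 52.84 ± 2.89 to 31.0 ± 1.03 without FAC (-0.75 ± 0.04, adjusted p = 1.6e-08, limma). MRPS18A changed by -0.33 without FAC and -0.05 with it. MRPS36, the dehydrogenase subunit, changed by -0.33 and -0.18, and its reads may be shared with pseudogenes listed at 3.13 FPKM in sum.

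These transcripts are short, and over all coding genes the shorter classes had the lower median change with BafA1 alone. Their canonical transcripts in GENCODE 44 had a median of 1242 bases and 5 exons, against 3387 bases and 9 exons over 11569 coding genes tested. Among all coding genes the median change with BafA1 alone was -0.41 for those under 1000 bases (n = 658), -0.18 from 1000 to under 2000 bases (n = 2043) and 0.00 at 2000 bases or more (n = 8868). Among the mitoribosomal genes the same medians were -0.61 (n = 26), -0.30 (n = 34) and -0.41 (n = 18). Their median was thus lower in each length class, but did not follow the order of length. Across the 78 genes, Pearson's r with the change was 0.30 for log2 length, 0.43 for exon number and -0.32 for GC percent. With FAC these were -0.10, -0.26 and 0.34. All are descriptions over genes that share the same libraries. The part of length, exon number or GC percent in the result was not tested.

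**Figure D3:**
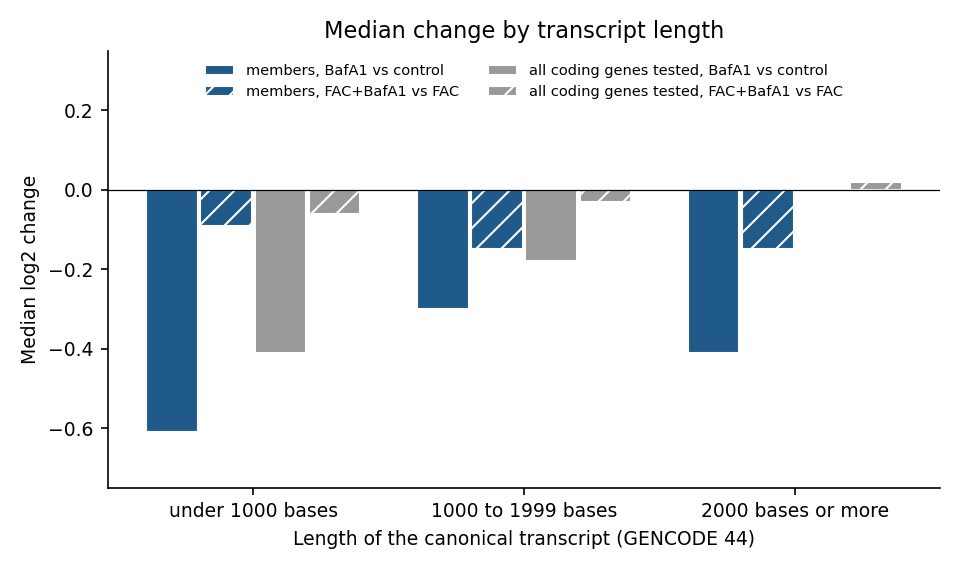
Median log2 change with BafA1 without FAC (plain bars) and with FAC (hatched bars) by length of the canonical transcript, for the mitoribosomal genes (blue) and all coding genes tested (grey). The grey plain bar at 2000 bases or more has no height because its median is 0.00. The blue plain bars reach lower than the grey ones in each class.

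After FAC, BafA1 lowered 35 of the 78 transcripts and raised 0 in limma's test. Of all genes tested 19.3% were called, 9.49% lower and 9.76% higher, against 44.9% lower for the mitoribosomal genes. At an unadjusted p under 0.05, 47 were lower and 1 was higher. The median change was -0.13, beside 0.00 for all genes. With equal sums of FPKM the share of all called genes that were higher went from 50.7% to 61.6%, and the members stayed on the lower side (median -0.11). Of the MRPL genes 18 of 49 fell (median -0.12) and of the MRPS genes 17 of 29 fell (median -0.14). In this comparison the large share of mitoribosomal FPKM rose, from 66.83%, 67.04% and 66.77% in FAC to 67.08%, 67.09% and 67.29% in FAC+BafA1 libraries, by 0.273 percentage points and without overlap (exact two-sided permutation test p = 0.10, the smallest possible).

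None of the 5 deepest falls after FAC was among the 5 deepest without it. MRPL47, near the tunnel exit, was 46.09, 46.54 and 48.17 FPKM in FAC and 38.49, 38.08 and 34.04 in FAC+BafA1 libraries (-0.34 ± 0.05, adjusted p = 0.0011, limma). MRPL1, of the stalk beside the exit site of tRNA, was 59.57, 62.2 and 64.15 in FAC and 53.88, 45.56 and 48.86 in FAC+BafA1 libraries (-0.32 ± 0.07, adjusted p = 0.00669, limma). In both the groups stood apart. Their changes without FAC were -0.30 and -0.18, so they were about as low or lower with FAC. MRPS18C, MRPS15 and MRPL30 followed with -0.31, -0.29 and -0.26. MRPS15 fell from 107.3 ± 2.51 to 87.84 ± 4.43 FPKM with FAC and from 100.7 ± 5.01 to 60.74 ± 2.29 without it (SD, n = 3 each).

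**Figure D4:**
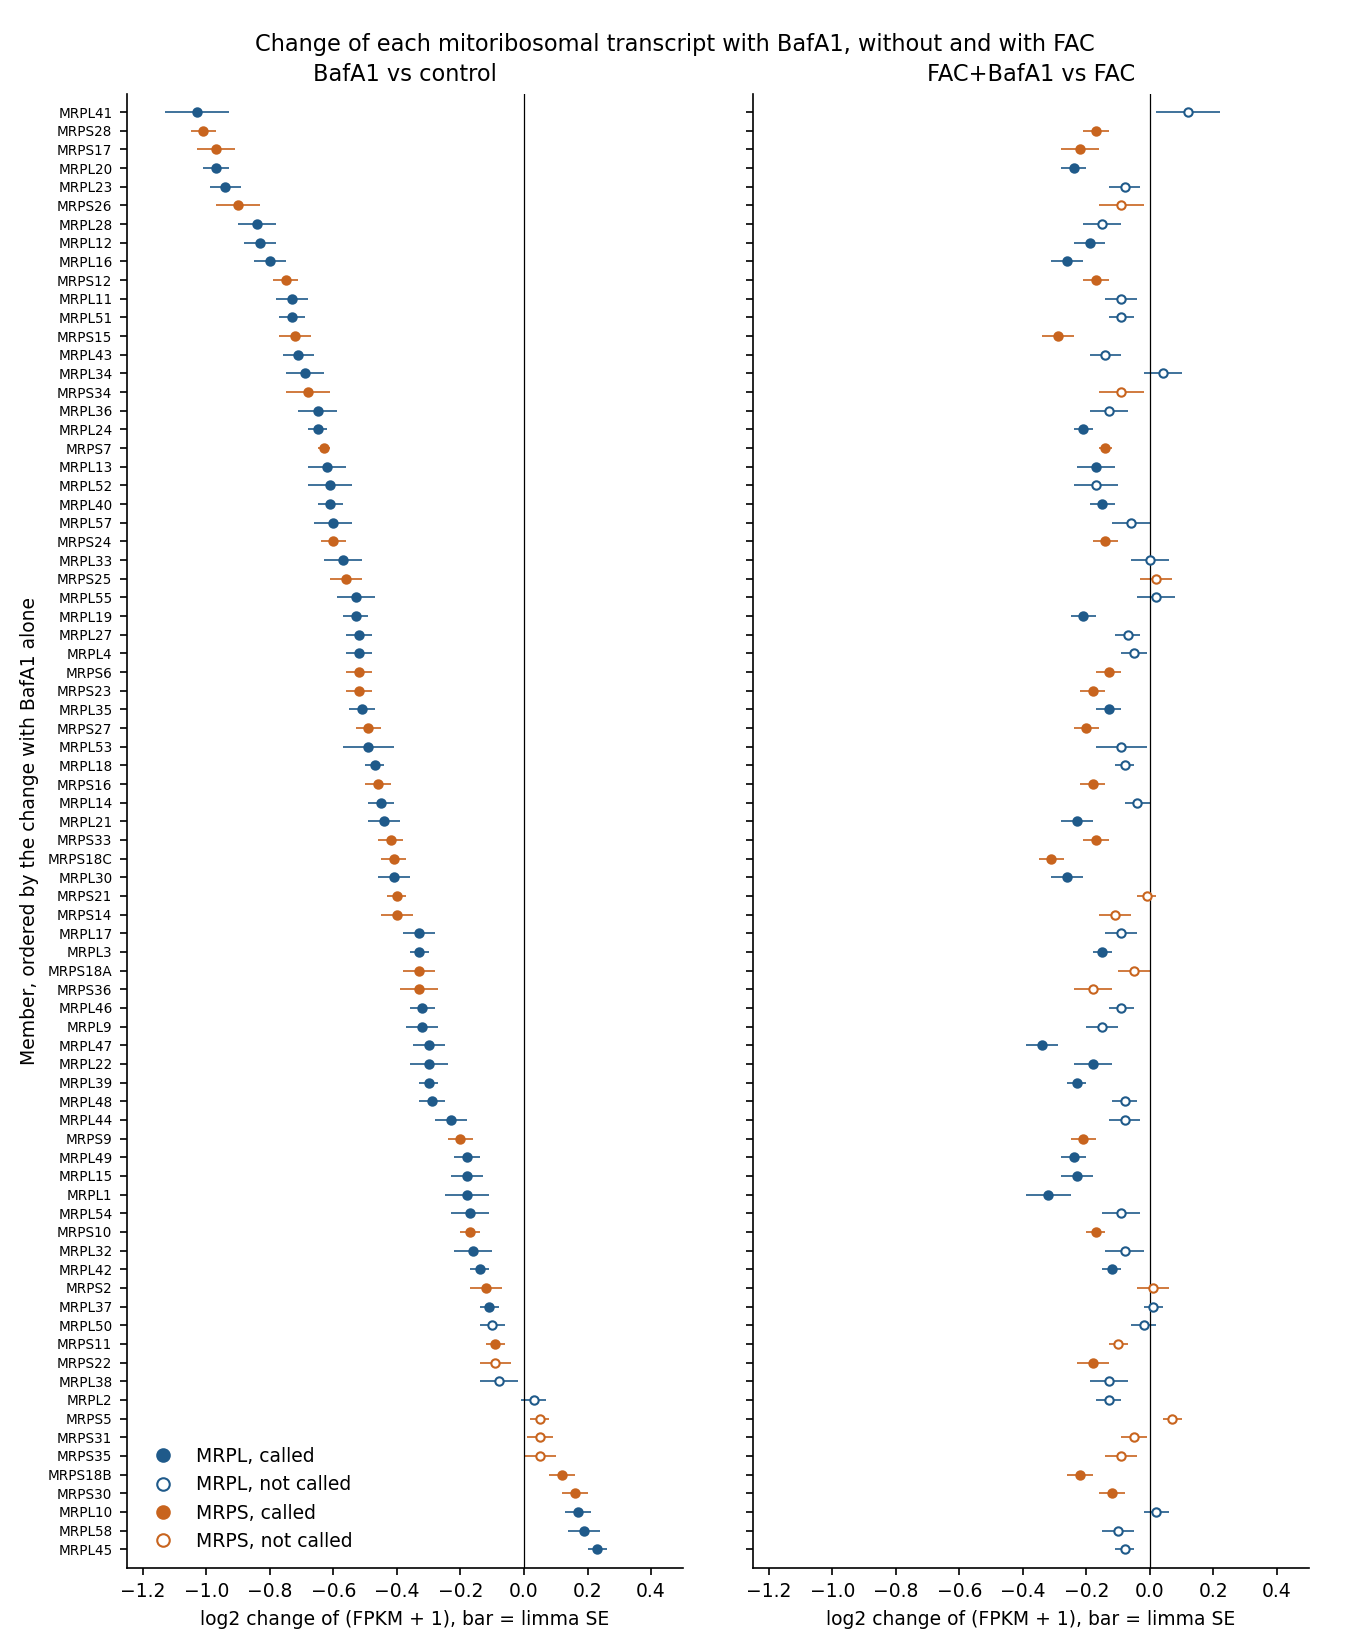
Log2 change of (FPKM + 1) with BafA1 for each of the 78 genes, without FAC (left) and with FAC (right), in the order of the left panel; bars are limma's SE, filled points passed an adjusted p of 0.05, MRPL genes are blue and MRPS genes orange. The left panel runs from -1.03 to 0.23, and the right panel from -0.34 to 0.12 in another order.

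The change with BafA1 differed between cells with and without FAC for 54 of the 78 genes. This difference is the change with FAC minus the change without it; it was higher, meaning a smaller fall or a turn upward, for 48 genes, and lower for 6 (limma). Over all genes tested 50.1% were called, 29.5% higher and 20.6% lower, against 61.5% and 7.69% here. With equal sums of FPKM the share of all called genes that were higher went from 58.9% to 48.7%. The median difference over the 78 genes was 0.28, beside 0.06 for all genes. MRPL genes had 31 higher and 4 lower (median 0.32) and MRPS genes 17 higher and 2 lower (median 0.28).

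The 5 largest differences were those of MRPL41 (1.16 ± 0.14), MRPL23 (0.85 ± 0.07), MRPS28 (0.84 ± 0.06), MRPS26 (0.81 ± 0.09) and MRPS17 (0.75 ± 0.09), with adjusted p from 5.12e-07 to 3.74e-05 in limma. MRPS26, a small-subunit protein specific to mitochondria, showed it plainly. It was 64.35, 64.84 and 58.69 FPKM in control and 30.78, 31.93 and 36.44 in BafA1, but 59.2, 55.97 and 59.5 with FAC alone and 59.0, 52.38 and 52.47 with both agents. The groups with FAC overlapped, while those without it did not. Genes with a negative difference were MRPS18B (-0.34 ± 0.05), MRPL45 (-0.31 ± 0.05), MRPS30 (-0.28 ± 0.05), MRPL58 (-0.28 ± 0.07), MRPL2 (-0.16 ± 0.06) and MRPL10 (-0.15 ± 0.05). They include all 5 risers. Since the change without FAC is subtracted in this difference, risers tend to a negative value and deep falls to a positive value by construction. The overlap is therefore not separate support. MRPS18B rose by 0.12 without FAC and fell by 0.22 with it (adjusted p = 0.00137, limma).

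Joint calls over the comparisons were counted for the 78 genes only, so the counts do not set these genes apart. Of all genes tested, 67.1% were called in BafA1 against control, 19.3% in FAC+BafA1 against FAC and 50.1% in the difference. The joint calls sort the 78 genes as follows. Lower with BafA1 both without and with FAC, and significantly less so with FAC, were 21 genes, among them MRPL12, MRPL20, MRPS12, MRPS16, MRPS17 and MRPS28. Lower without FAC and not called with it, with a called difference, were 27, among them MRPL11, MRPL23, MRPL41, MRPL51, MRPS18A, MRPS25 and MRPS26. Lower in both with no called difference were 11, among them MRPL1, MRPL30, MRPL47 and MRPS18C. For the 54 genes lower by at least 0.25 without FAC, the change with FAC divided by the change without it had a median of 0.242 and ranged from -0.12 to 1.15. These genes were picked on the change that is the divisor, which by itself can lower the ratio. The ratio was not computed over all genes, so it does not set these genes apart. Across the 78 genes Pearson's r between both changes was 0.10 (Spearman's rho 0.13), and over all 13682 genes it was 0.53 (0.50). The 78 genes spanned -1.03 to 0.23 without FAC and -0.34 to 0.12 with it. All genes spanned -3.13 to 6.98 and -2.13 to 3.46. A narrower range can by itself lower r, so the values for the 78 and for all genes are not like for like. These correlations are over genes and are given as descriptions.

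**Figure D5:**
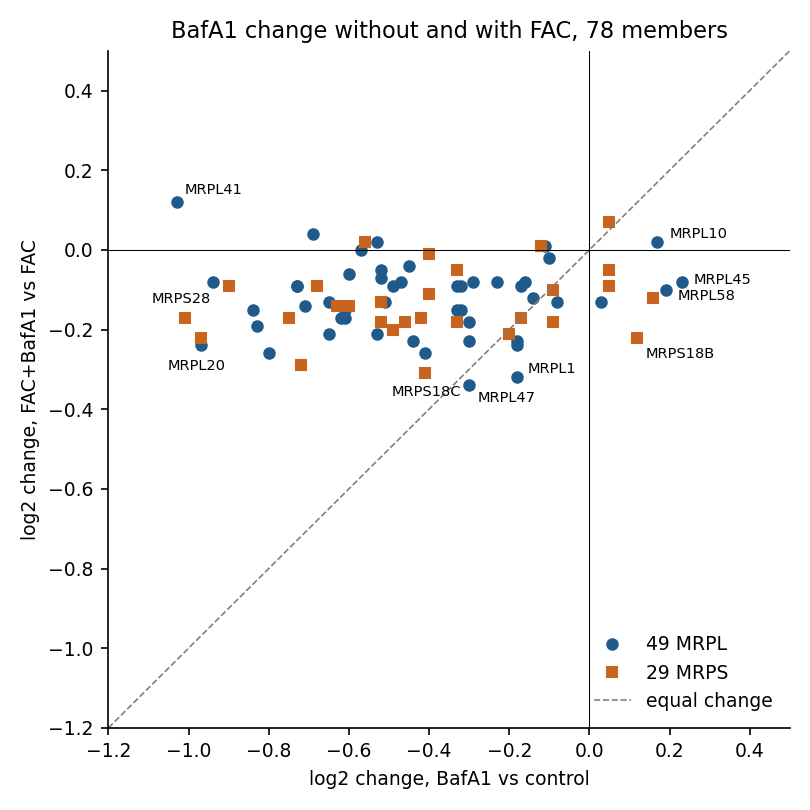
Log2 change with BafA1 after FAC (vertical axis) against the change without FAC (horizontal axis) for 49 MRPL genes (circles) and 29 MRPS genes (squares); the dashed line marks equal change. Most points lie above the line on the left side, in a flat band between -0.34 and 0.12 on the vertical axis.

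Several calls lay close to the threshold and depended on 1 library or on the setting. For the change with BafA1 after FAC, MRPS30 (-0.12, adjusted p = 0.0472) was not called without any one of control replicate 2, FAC replicates 2 or 3, or any of the BafA1 or FAC+BafA1 libraries (adjusted p 0.0524 to 0.144). MRPS6 (-0.13, adjusted p = 0.044) was not called without control replicate 3, BafA1 replicate 3 or any one of the FAC or FAC+BafA1 libraries (0.0543 to 0.121). MRPL12 (-0.19, adjusted p = 0.019) was not called without FAC replicates 1 or 2 or FAC+BafA1 replicate 2 (0.0573 to 0.0746). MRPS12 (-0.17, adjusted p = 0.017) was lost without FAC replicate 2 or FAC+BafA1 replicates 1 or 2 (0.0528 to 0.0631), and MRPS22 (-0.18, adjusted p = 0.0195) without FAC replicates 1 or 2 or FAC+BafA1 replicate 3 (0.0575 to 0.0715). MRPS36 (-0.18, adjusted p = 0.0677) was called without control replicate 1 (0.025). For the difference, MRPL10 (adjusted p = 0.0283) was lost without control replicates 1 or 3, BafA1 replicate 1, FAC replicates 1 or 2 or FAC+BafA1 replicate 2 (0.0553 to 0.0697). MRPL2 (adjusted p = 0.0387) was lost without any one control, BafA1 replicates 1 or 2, FAC replicates 1 or 2 or FAC+BafA1 replicates 2 or 3 (0.0577 to 0.0921). Other settings also lost calls of the change with BafA1 after FAC. MRPS30 and MRPS6 were not called with no filter (0.0913 and 0.0921) or quantile normalization (0.0901 and 0.0608). The same held with equal sums of FPKM (0.104 and 0.0959) and a replicate block (0.0795 and 0.0718). MRPL12 was not called with no filter (0.059) or quantile normalization (0.0626). All of these are limma's adjusted p over all genes.

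FAC alone changed 0 of the 78 genes in limma's test, with 7 at an unadjusted p under 0.05, 2 higher and 5 lower. Of all genes tested 9.56% were called, 4.72% higher and 4.84% lower. That share may hold genes whose entries were filled differently with and without FAC. With a mean of at least 5 FPKM required, 402 genes were called instead of 1308, among fewer tested. The lowest of the 78, MRPL57, had a mean of 11.95 FPKM. The share of 9.56% is therefore not a matched background for these genes. The median over the 78 genes was -0.02, beside 0.00 for all genes. The furthest from 0 was MRPL41 at -0.34 ± 0.10 (adjusted p = 0.0594, limma), with every FAC library below every control. Its adjusted p was 0.0175 with control replicate 3 left out (-0.43) and 0.0243 with BafA1 replicate 3 left out (limma). MRPL12 was called without control replicate 3 (-0.19, adjusted p = 0.0118), and MRPL49 without FAC replicate 3 (0.14, adjusted p = 0.042, all limma). MRPL49 is named after its value was seen.

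FAC+BafA1 libraries against BafA1 libraries had 53 genes higher and 9 lower (limma), with a median of 0.27 beside 0.06 for all genes. Of all genes tested 67.9% were called, 38.8% higher and 29.1% lower, against 67.9% and 11.5% here. With equal sums of FPKM 45 of the 78 were higher and 14 lower, and the share of all called genes that were higher went from 57.2% to 48.5%. This comparison shares its BafA1 libraries with BafA1 against control, so both sets of values are given side by side and not as separate support. MRPL41 was 0.82 ± 0.10 higher, MRPL23 0.78 ± 0.05, MRPS28 0.77 ± 0.04, MRPS17 0.76 ± 0.06 and MRPS26 0.71 ± 0.07. MRPS30 was lower, at -0.38 ± 0.04, as were MRPL58 and MRPS18B (-0.30 each), MRPL45 (-0.26) and MRPL2 (-0.22). MRPL genes had 34 higher and 4 lower, and MRPS genes 19 higher and 5 lower.

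Other genes of mitochondrial translation were taken from related lists. Of 5 mitoribosomal proteins with other symbols, 3 fell with BafA1 alone: CHCHD1 (-0.71 ± 0.05), AURKAIP1 (-0.67 ± 0.05) and GADD45GIP1 (-0.63 ± 0.06). DAP3, a GTP-binding protein of the small subunit, rose from 107.7 ± 3.01 to 127.6 ± 1.99 FPKM (SD, n = 3 each; 0.24 ± 0.03, adjusted p = 5.4e-05, limma). PTCD3, at the entry of the message, changed by 0.03 (adjusted p = 0.672, limma). With FAC 0 of the 5 were called, and 1 was lower at an unadjusted p under 0.05. Over all genes tested 67.1% were called without FAC and 19.3% with it.

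Of 26 assembly factors 13 fell and 5 rose with BafA1 alone (median -0.17), and 6 fell and 0 rose with FAC (median -0.08). The shares called were 69.2% without FAC and 23.1% with it, near the 67.1% and 19.3% of all genes tested. With equal sums of FPKM 9 fell and 6 rose without FAC (median -0.07). GTPBP10, a GTPase of large-subunit assembly, rose from 27.9 ± 2.99 to 46.5 ± 1.76 FPKM without FAC, and was 28.6 ± 1.41 in FAC and 25.58 ± 1.22 in FAC+BafA1 libraries. NSUN4, which methylates ribosomal RNA, rose by 0.71 ± 0.07, and FASTKD2, which binds the large ribosomal RNA, fell by 0.43. METTL17, an iron-sulfur protein of small-subunit assembly, rose from 55.0 ± 0.488 to 67.91 ± 4.23 (0.30 ± 0.04, adjusted p = 6.99e-05, limma), while 23 of the 29 MRPS genes fell. With FAC it changed by 0.09 (adjusted p = 0.164), and the difference was -0.20 (adjusted p = 0.0162, both limma).

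Of 16 translation factors 8 fell and 3 rose with BafA1 alone (median -0.15). That is 68.8% called, near the 67.1% of all genes; with equal sums of FPKM 7 fell and 5 rose (median -0.06). SLIRP, which protects mitochondrial messages, fell from 265.0 ± 9.84 to 144.5 ± 5.68 FPKM (-0.87 ± 0.04). TUFM, the elongation factor that brings tRNA, and TSFM, its exchange factor, fell by 0.50 and 0.51. Of 20 genes listed as mitochondrial aminoacyl-tRNA synthetases 12 fell and 3 rose (median -0.35), which is 75% called. That list also holds QRSL1, GATB and GATC, which are amidotransferase subunits and not synthetases. The smallest adjusted p were those of LARS2 (-0.97 ± 0.04), IARS2 (-0.44 ± 0.03) and EARS2 (-0.76 ± 0.06). With FAC 7 genes of the synthetase list fell and 0 rose, or 4 fell with equal sums. Over all genes tested 9.49% were lower and 9.76% higher with FAC. Of the translation factors 5 fell and 1 rose with FAC, and 3 fell under quantile normalization. The riser was PDF, which removes the formyl group from new mitochondrial proteins and was named after its values were seen. It was 3.17 ± 0.658 FPKM in FAC and 5.687 ± 0.575 in FAC+BafA1 libraries (SD, n = 3 each; 0.69 ± 0.17, adjusted p = 0.017, limma).

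The median fall of cytosolic ribosomal proteins was smaller than that of the mitochondrial ones. Of 81 tested, 62 fell and 1 rose with BafA1 alone, with a median of -0.16, and 1 fell with FAC, with a median of -0.03. The count without FAC depends on the scaling. With median-of-ratios scaling 39 fell and 4 rose (median -0.09), with equal sums of FPKM 34 fell and 9 rose (median -0.06), and under quantile normalization 24 fell and 10 rose (median -0.02). RPS26 fell by 0.71, RPS27L by 0.69 and RPL35 by 0.47. Genes listed by symbol as nuclear subunits of respiratory complex I, which assemble with products of the mitochondrial ribosome, fell in 35 of 38 cases. They rose in 1, with a median of -0.56. The symbol pattern also takes in NDUFA4, a subunit of complex IV. The smallest adjusted p were those of NDUFC2 (-0.72), NDUFB3 (-1.03) and NDUFB4 (-0.86). With FAC 14 of the 38 fell, with a median of -0.10 (7 under quantile normalization, median -0.06). Genes called lower made up 76.5% of the cytosolic list and 92.1% of the complex I list without FAC, and 1.23% and 36.8% with it. Over all genes tested 37.6% were lower and 29.5% higher without FAC, and 9.49% lower and 9.76% higher with it. These medians and shares are descriptions, and no test compared the lists.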

How the data were processed

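RNA was extracted from 12 HEK293T samples and made into stranded mRNA libraries, per the labels' protocols. The authors deposited one table of FPKM per gene; STAR, RSEM and GRCh38 are named in the submitters' processing notes, without versions or an annotation release. FPKM keeps no counts, and depth could be recovered only roughly. Strand handling in counting is not given in the sources used here.

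From these values, 3 repeated IDs (0 in every library) were dropped, and genes whose mean FPKM over the libraries was 1 or more were kept. limma 3.58.1 (R 4.3.3) was fitted to log2(FPKM + 1), with a mean for each of 4 groups and a trended prior. Log2 changes are on that scale, where the added 1 shrinks the change of weakly expressed genes. P-values were adjusted by Benjamini-Hochberg over the 13682 genes tested in each of 5 comparisons, and a gene was called at an adjusted p under 0.05. The fit was tested on simulated data. The 3 repeats of a group correlated at 0.9927 to 0.9952, and 0 pairs were identical. SD is over the 3 libraries of a group, and SE is limma's.

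Named genes were, in each comparison, the 5 called members with the largest change each way, the 3 highest and 3 lowest in mean FPKM, and a fixed set of 15 (MRPS6, MRPS12, MRPS16, MRPS18A, MRPS18B, MRPS18C, MRPS22, MRPS25, MRPS30, MRPS36, MRPL10, MRPL11, MRPL12, MRPL45, MRPL58). From each related list the 3 called genes with the smallest adjusted p were named, with METTL17 and the mitoribosomal proteins of other symbols. Members, lists and tests were chosen with earlier results of these data known. Alternatives covered the pseudocount, the filter, scaling, the prior, the groups fitted, a replicate block and leaving out each library. Of 6 fibroblast markers, 1 reached 1 FPKM (COL1A1, 4.84), and its part in the results was not tested. Another marker list is not reported here.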

Additional observations from a re-analysis of the deposited data

Results flagged for a closer look

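For 24 of the 31 named genes the change with BafA1 differed between cells with and without FAC by the test of the difference itself (limma, adjusted p under 0.05). The values are the log2 change with FAC minus that without it. A positive value was found for MRPL41 (1.16), MRPL23 (0.85), MRPS28 (0.84), MRPS26 (0.81), MRPS17 (0.75), MRPL20 (0.73), MRPL12 (0.65), MRPL11 (0.64), MRPL51 (0.64), MRPS12 (0.58), MRPS25 (0.57), MRPL57 (0.54), MRPS15 (0.43), MRPS6 (0.39), MRPS16 (0.28), MRPS18A (0.28), MRPL3 (0.19) and MRPL37 (0.12, but -0.01 under quantile normalization). A negative value was found for MRPS18B (-0.34), MRPL45 (-0.31), MRPS30 (-0.28), MRPL58 (-0.28), MRPL2 (-0.16) and MRPL10 (-0.15). Of the 13682 genes tested 50.1% were called in this test, so a call alone does not set these genes apart.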

How the results depend on the processing

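Directions of the medians and most calls held under the 10 other settings and the 12 fits without 1 library. Of the values of named genes under these settings, 2571 kept their side of the threshold, 93 were no longer called and 13 became called. Another 3 changed sign and were called in at least 1 of the fits compared. A change of sign between fits that both left the gene uncalled counts among the 2571. The causes were not tested. The 3 counted as a change of sign were all MRPL37 under quantile normalization. Its values were 0.07 in BafA1 against control, -0.01 in the difference and -0.03 in FAC+BafA1 against BafA1.

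In BafA1 against control the median over the 78 genes was -0.37 with median-of-ratios scaling, -0.40 with quantile normalization, and -0.33 with equal sums of FPKM or equal sums over coding genes, the last chosen after seeing the data. For MRPL genes these were -0.38, -0.40, -0.35 and -0.35, and for MRPS genes -0.35 with median-of-ratios, -0.32 with equal sums and -0.31 over coding genes. Genes called higher numbered 9 under either equal-sum scaling. In FAC+BafA1 against FAC the MRPL median was -0.09 with quantile normalization. The median difference was 0.21 with median-of-ratios, 0.21 with equal sums and 0.20 over coding genes, for MRPL genes 0.25, 0.24 and 0.24 (0.28 by place) and for MRPS genes 0.21, 0.20 and 0.20; 10 genes were called lower over coding genes. In FAC+BafA1 against BafA1 the medians were 0.20, 0.19 and 0.18, for MRPL genes 0.20, 0.19 and 0.18 and for MRPS genes 0.21, 0.19 and 0.19, with 14 genes lower under equal sums and 15 over coding genes. In FAC against control 1 gene was called with equal sums, over coding genes or with the 2 groups alone. Over all genes, 1308 were called in FAC against control, 4486 with no filter on low values and 402 with a mean of at least 5 FPKM.

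Leaving out each library in turn gave medians from -0.48 to -0.42 for MRPL genes in BafA1 against control and from 0.27 to 0.36 in the difference. It gave 24 to 36 genes lower in FAC+BafA1 against FAC, 4 to 6 lower in the difference, and 0 to 2 called in FAC against control (0 to 1 higher, 0 to 2 lower).

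Replicate numbers are shared over the groups, but the labels do not say that they pair samples. Deviations of same-numbered libraries correlated at -0.07 to 0.14 (18 pairs), those of other libraries at -0.15 to 0.12 (36 pairs), and 5 of 12 libraries correlated best with their own number. With the replicate number as a block, 70 genes were called in BafA1 against control, 31 in FAC+BafA1 against FAC, 54 in the difference, 0 in FAC against control and 63 in FAC+BafA1 against BafA1.

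With 3 libraries a group and FPKM values, small changes near the threshold are the least certain, and depth behind each value is known only roughly.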
